A study of Mus musculus with 4 samples.

Results

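The splicing factor genes described here are the 55 of the 32285 genes in the matrices whose symbols begin with Sf3a or Sf3b and a digit, Srsf and a digit, Snrp, Hnrnp, U2af1 or U2af2, without pseudogene names. They comprise 3 SF3A genes, 6 SF3B genes, 3 U2AF genes, 11 SR genes, 12 snRNP genes and 20 hnRNP genes. They were followed in single cells of wild-type C57BL/6J mice, 6 to 8 weeks old, that had been transplanted with MA9 leukaemia cells, which are blood progenitors transformed by the fusion gene MLL-AF9. The leukaemia cells carried a doxycycline-inducible hairpin against Prmt9 (shPrmt9) or were controls (Ctrl), and the mice of both groups drank doxycycline for 7 days. Host cells carried no hairpin. Bone marrow (BM) gave the libraries BM-Ctrl and BM-shPrmt9, and spleen gave Spleen-Ctrl and Spleen-shPrmt9, from 1 mouse per group by the study's account. With 1 library per group there was no test, and every difference below is between single libraries.

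The spliceosome removes introns from pre-mRNA. The SF3A and SF3B complexes belong to its U2 particle and hold the branch point, U2AF marks the 3′ splice site, the Snrp genes encode proteins of the small nuclear ribonucleoproteins, and SR and hnRNP proteins bind the transcript and steer the choice of sites. Sf3b2 encodes a subunit of SF3B that PRMT9 is known to methylate on arginine. Splicing genes, SF3B1, U2AF1 and SRSF2 among them, are recurrently mutated in human myeloid malignancies. The libraries count the 3′ ends of transcripts, so they give the level of each gene's RNA and neither its isoforms nor the methylation of its protein.

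The start regions of 3 members are shown: Sf3b2, the methylated subunit, Sf3b1, the SF3B gene with the largest ratio in MA9-gated cells of bone marrow, and Hnrnpdl, an hnRNP gene that was past 1.5-fold there. Each runs from 250 bases before to 50 bases after the RefSeq start on GRCm38.p6, 5′ to 3′ on the gene's strand, with a CCAAT box or ETS core in capitals.
Sf3b2, chr19:5295408-5295707, minus strand: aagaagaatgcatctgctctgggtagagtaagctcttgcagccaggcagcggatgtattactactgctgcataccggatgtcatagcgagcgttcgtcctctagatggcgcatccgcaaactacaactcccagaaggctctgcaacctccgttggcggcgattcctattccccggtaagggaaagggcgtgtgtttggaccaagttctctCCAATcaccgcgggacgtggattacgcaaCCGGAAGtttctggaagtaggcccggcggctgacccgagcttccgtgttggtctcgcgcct
Sf3b1, chr1:55027429-55027728, minus strand: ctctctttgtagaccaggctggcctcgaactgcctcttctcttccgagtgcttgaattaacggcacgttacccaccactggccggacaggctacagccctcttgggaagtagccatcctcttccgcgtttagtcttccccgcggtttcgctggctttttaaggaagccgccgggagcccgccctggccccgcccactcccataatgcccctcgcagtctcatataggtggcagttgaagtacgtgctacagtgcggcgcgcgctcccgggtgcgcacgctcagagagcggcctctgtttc
Hnrnpdl, chr5:100039173-100039472, minus strand: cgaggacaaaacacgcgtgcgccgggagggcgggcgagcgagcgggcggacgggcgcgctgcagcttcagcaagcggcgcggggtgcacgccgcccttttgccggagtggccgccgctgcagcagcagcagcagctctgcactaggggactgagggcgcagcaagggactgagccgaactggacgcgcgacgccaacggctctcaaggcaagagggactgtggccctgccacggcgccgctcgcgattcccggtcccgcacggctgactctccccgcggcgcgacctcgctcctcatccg
The Sf3b2 region held CCAAT from position 211 and CCGGAAG from position 240, and neither motif was in the other windows. Promoters of 48 members were in the table of 27025. On either strand, the ETS core CCGGAAG was in 33.3% of the members' windows and 9.12% of all, CCAAT in 47.9% and 37.9%, the E-box CACGTG in 10.4% and 7.24%, and TATAAA in 12.5% and 14.2%. These are letter matches, not binding sites.

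The libraries held 8648 to 11315 cell barcodes and 84009744 to 188030429 unique molecular identifiers (UMIs), and 7507 to 10163 cells were used. Cells were named by marker genes. The MA9 gate, on Hoxa9, Hoxa10, Hoxa7, Hoxa5, Meis1 and Pbx3, held 1387, 1317, 24 and 19 cells in the order BM-Ctrl, BM-shPrmt9, Spleen-Ctrl, Spleen-shPrmt9. In bone marrow Hoxa9 and Hoxa10 led these cells. In spleen they were led by Elane and Prtn3, granule genes of neutrophil progenitors, with Hoxa9 lower in order. The order is against other classes of the same library. The 6 MA9 markers summed to 470, 639, 419 and 448 CPM in these cells of the 4 libraries. Their identity was not tested, so they are called MA9-gated instead of by a cell type. A further 80, 544, 12 and 134 cells passed both the MA9 and the granulocyte gate and are called doubly gated; whether they are doublets was not tested. Levels are UMIs of a gene scaled to 1000000 UMIs of the class (CPM), with exact Poisson 95% intervals that cover counting error only, and ratios are shPrmt9 over Ctrl with exact binomial 95% intervals of the same kind. In MA9-gated cells the 11 granulocyte markers summed to 3534, 10218, 17615 and 25131 CPM in the 4 libraries in that order. The neutrophil-progenitor markers summed to 8878, 12102, 7591 and 3036 CPM, the erythroid markers to 291, 559, 158 and 1622, the dendritic cell markers to 171, 19.5, 27.5 and 7.16 and the T cell markers to 3.21, 5.23, 73.6 and 137. The part of these markers in the results for MA9-gated cells was not tested. The hairpin's target, Prmt9, was at 11.02 and 6.01 CPM in MA9-gated cells of bone marrow (0.545, 0.488–0.609), and at 16.8 and 4.29 in those of spleen, from 19 and 3 UMIs. In T-like cells of spleen, which carried no hairpin, Prmt9 was at 15.1 and 9.43 CPM.

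The libraries differed in sex-linked transcripts. Outside the MA9-gated cells, 4 Y-linked genes summed to 0 and 0.0134 CPM in the bone marrow libraries and to 214 and 155 in the spleen libraries, which goes against 1 mouse having given both tissues of a group. Xist, the X-inactivation RNA, was at 329 CPM in T-like cells of BM-Ctrl and 581 in those of BM-shPrmt9, and at 41.6 and 965 in B-like cells. It was at 1.90 and 650.2 CPM in monocyte/macrophage-like cells and at 0.0935 and 131 in granulocyte-like cells. In erythroid-like cells Xist was at 0 and 251.5 CPM, and in MA9-gated cells of bone marrow at 0.0812 and 23.0. The marrow libraries were thus further apart in these classes than in T-like cells. In MA9-gated cells of spleen the Y-linked genes summed to 6.20 and 15.7 CPM, against 218 and 217 in T-like cells. Which classes came from the host was not tested. Tissue and host cannot be told apart. Any pair of libraries shared 13 to 35 barcodes, at most 0.384% of the smaller one.

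Sf3b2 (ENSMUSG00000024853; chr19:5273932-5295455, minus strand, GRCm38) was counted at a similar level in most classes. In MA9-gated cells Sf3b2 was at 204 (201–207) CPM in BM-Ctrl, 230.0 (227–233) in BM-shPrmt9, 267 (237–299) in Spleen-Ctrl and 252 (216–292) in Spleen-shPrmt9. The intervals of the bone marrow pair did not overlap, and those of the spleen pair did. The Sf3b2 ratio of MA9-gated cells was 1.13 (1.11–1.15) for bone marrow, and 0.944 (0.780–1.14) for spleen. With each cell thinned to 2000 UMIs the spleen ratio was 1.58, on the other side of 1.

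Granulocyte-like cells had 236, 234, 197 and 195 CPM of Sf3b2 in the 4 libraries, in the same order. T-like cells had 253, 259.6, 258 and 249 CPM of Sf3b2, and B-like cells 299, 268, 284 and 295. Each of these classes thus stayed within a narrow band over tissues and groups. Monocyte/macrophage-like cells had 195, 197, 222 and 188 CPM of Sf3b2, doubly gated cells 240.1, 229, 229 and 198, and natural killer-like cells of spleen 257 and 289. The smallest classes of bone marrow had wide intervals: dendritic cell-like cells had 233 and 328 CPM of Sf3b2, basophil-like cells 249.7 and 234, and megakaryocyte-like cells 283 and 356.

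Among the classes given here, erythroid-like cells were the exception. They had 16.3, 21.9, 7.54 and 6.82 CPM of Sf3b2, in a class whose transcripts are mostly haemoglobin. Plasma-like cells, 19 in Spleen-shPrmt9, are not among these classes. All their SF3B genes together were at 310 CPM. With mitochondrial, ribosomal protein and haemoglobin genes left out of the total, the Sf3b2 level of erythroid-like cells of BM-Ctrl was 60.5 CPM, that of BM-shPrmt9 65.6, that of Spleen-Ctrl 51.0 and that of Spleen-shPrmt9 52.8. On this reduced total MA9-gated cells had 310, 342, 381 and 325 CPM of Sf3b2 in the same order, and granulocyte-like cells 251, 247, 218 and 210. Erythroid-like cells thus stayed below both.

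**Figure D1:**
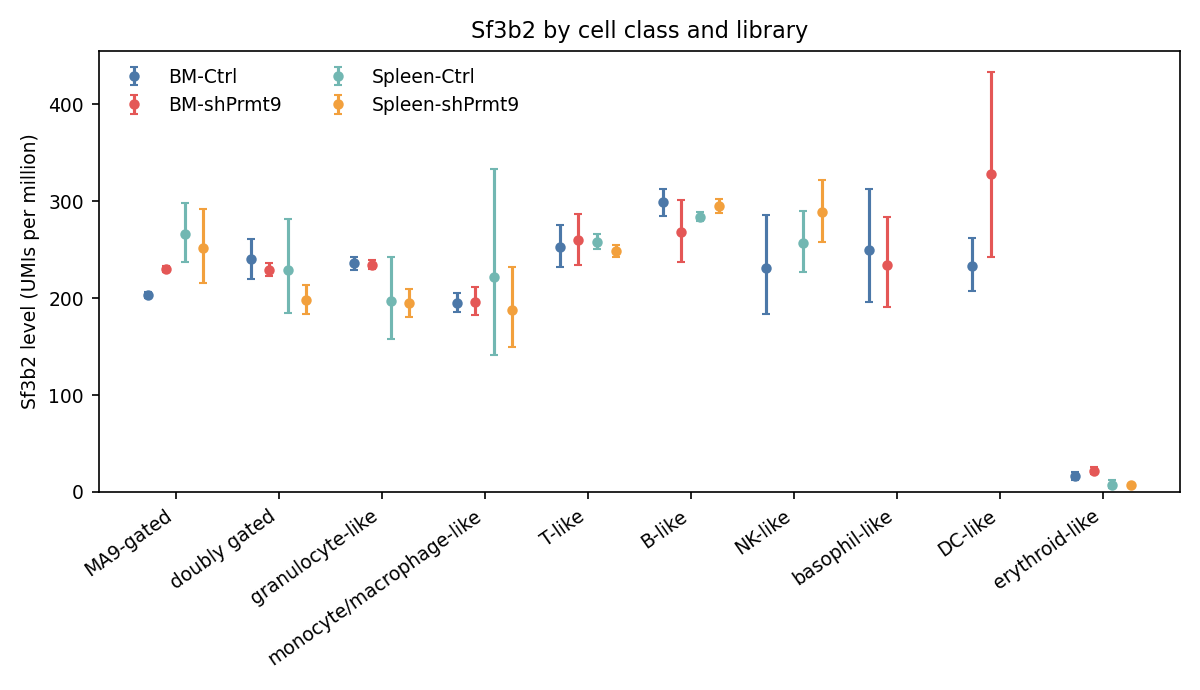
Sf3b2 level in CPM (y axis, from 0) by cell class (x axis) in each library, with exact Poisson 95% intervals as bars. Cells of the megakaryocyte, plasma cell and neutrophil-progenitor gates are not drawn. MA9-gated cells sat at 204 to 267, T-like cells at 249 to 259.6 and erythroid-like cells at 6.82 to 21.9.

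Sf3b2 was compared between shPrmt9 and Ctrl in 18 pairs of class and tissue, those with at least 10 cells in both libraries. The neutrophil-progenitor gate was left out because its cells in BM-shPrmt9 were led by the eosinophil gene Prg2. The Sf3b2 ratio ran from 0.844 to 1.41, with 0 of 18 at or past 1.5-fold. Under at least 1 alternative, 5 of the 18 were past it: with cells thinned, MA9-gated cells of spleen (1.58), doubly gated cells of spleen (2.06), granulocyte-like cells of spleen (1.51) and dendritic cell-like cells of bone marrow (1.83), and erythroid-like cells of spleen in both directions (0.445 thinned and 2.49 with cells weighted equally). The interval lay above 1 in 3 comparisons, below 1 in 0 and across 1 in 15. The comparisons above 1 were MA9-gated cells of bone marrow, B-like cells of spleen (1.04, 1.01–1.07) and dendritic cell-like cells of bone marrow (1.41, 1.02–1.91), the last with 13 cells in BM-shPrmt9. On the log2 scale the Sf3b2 ratio spanned 0.74 from its lowest to its highest comparison. Of the members with at least 50 UMIs in all 18, Hnrnpk, which binds poly(C) tracts, had a smaller span at 0.62.

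In MA9-gated cells of bone marrow, 53 of the 55 members had at least 50 UMIs over both libraries. The others, Snrpn and Srsf12, reached that number in 0 comparisons. Of the 53, 33 had a log2 ratio above 0 and 20 below. The median log2 ratio was 0.10, beside 0.03 for all genes with 50 UMIs. At least 1.5-fold higher in BM-shPrmt9 were 2 members, Hnrnph1 and Hnrnpdl, where 20% of all genes were. At least 1.5-fold lower were 0 of 53, where 14.3% of all genes were. Members past 1.5-fold were thus a smaller share than genes at large in both directions. Genes at large were taken from 50 UMIs upward, and here and below their shares were not matched to the members for level.

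Of the SF3B genes, Sf3b1, whose product clamps the branch helix, had the largest ratio. It was at 194 and 279 CPM (ratio 1.44, 1.41–1.47) in bone marrow, BM-Ctrl first, and at 299 and 348 CPM (ratio 1.16, 0.984–1.38) in spleen. Sf3b3 had 68.6 and 84.3 CPM (ratio 1.23, 1.19–1.27) in bone marrow and 93.9 and 71.6 CPM (ratio 0.762, 0.533–1.08) in spleen. Only the bone marrow intervals of these genes lay above 1. Sf3b4 had 45.3 and 42.8 CPM (ratio 0.945, 0.903–0.990) in bone marrow, Sf3b5 192 and 194 CPM (ratio 1.01, 0.984–1.03), and Sf3b6, the subunit at the branch adenosine, 205 and 194 CPM (ratio 0.943, 0.923–0.964). In spleen Sf3b4 had 62.0 and 44.4 CPM (ratio 0.715, 0.453–1.11), Sf3b5 236 and 200.4 CPM (ratio 0.850, 0.688–1.05) and Sf3b6 207 and 232 CPM (ratio 1.12, 0.910–1.37), each with an interval across 1. The 6 SF3B genes together were at 909, 1024, 1164 and 1148 CPM in the 4 libraries.

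The SF3A genes, whose products join SF3B to the U2 particle, had ratios on both sides of 1 in bone marrow and were low in Spleen-shPrmt9. Sf3a1 had 35.1 and 29.8 CPM (ratio 0.851, 0.806–0.898) in MA9-gated cells of bone marrow, Sf3a2 33.7 and 31.8 CPM (ratio 0.944, 0.894–0.996) and Sf3a3 60.9 and 66.0 CPM (ratio 1.08, 1.04–1.13). In spleen Sf3a1 had 39.0 and 22.9 CPM (ratio 0.587, 0.309–1.06), Sf3a2 39.0 and 25.8 CPM (ratio 0.661, 0.359–1.17) and Sf3a3 64.7 and 41.5 CPM (ratio 0.642, 0.402–0.999). Of these spleen intervals, that of Sf3a3 alone lay below 1. The SF3A sum had a ratio of 0.984 (0.958–1.01) in bone marrow and 0.632 (0.465–0.851) in spleen.

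U2af1, the subunit that reads the AG of the 3′ splice site, had 291 and 233 CPM (ratio 0.801, 0.786–0.816) in bone marrow and 277 and 269 CPM (ratio 0.970, 0.805–1.17) in spleen. Its partner U2af2, which binds the polypyrimidine tract, had 58.3 and 73.5 CPM (ratio 1.26, 1.21–1.31) in bone marrow and 102 and 94.5 CPM (ratio 0.927, 0.674–1.27) in spleen. The partners thus lay on opposite sides of 1 in bone marrow. U2af1l4, a relative of U2af1, had 27.2 and 30.2 CPM (ratio 1.11, 1.05–1.18) in bone marrow and too few UMIs in spleen for a ratio.

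Among the SR genes, the 3 with the highest CPM in MA9-gated cells of BM-Ctrl were Srsf3, Srsf5 and Srsf2. Srsf3 had 374 and 493 CPM (ratio 1.32, 1.30–1.34) in bone marrow and 609 and 522 CPM (ratio 0.858, 0.754–0.976) in spleen. Srsf2, which binds exonic enhancers, had 271 and 333 CPM (ratio 1.23, 1.21–1.25) in bone marrow and 359 and 291 CPM (ratio 0.810, 0.681–0.961) in spleen. Both had intervals above 1 in bone marrow and below 1 in spleen. Srsf5 had 293 and 243 CPM (ratio 0.829, 0.814–0.845) in bone marrow and 253 and 225 CPM (ratio 0.887, 0.725–1.08) in spleen. Srsf11 had the lowest ratio of the 53 members in bone marrow, with 202 and 148 CPM (ratio 0.730, 0.713–0.747). Srsf10, which represses splicing when dephosphorylated, had 101 and 80.7 CPM (ratio 0.796, 0.770–0.822) in bone marrow and the lowest ratio of the members in spleen, with 122 and 67.3 CPM (ratio 0.550, 0.386–0.771).

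Of the snRNP genes, Snrpg, Snrpe and Snrpf encode Sm proteins of the ring that the U1, U2, U4 and U5 particles carry. Snrpg had 651 and 651 CPM (ratio 0.999, 0.988–1.01) in MA9-gated cells of bone marrow, and 736 and 415 CPM (ratio 0.564, 0.491–0.645) in spleen. Snrpe had 537 and 469.9 CPM (ratio 0.875, 0.863–0.887) in bone marrow and 564 and 376 CPM (ratio 0.668, 0.576–0.772) in spleen. Snrpf had 406 and 556 CPM (ratio 1.37, 1.35–1.39) in bone marrow and 509 and 437 CPM (ratio 0.858, 0.745–0.988) in spleen. The 3 genes of highest CPM thus lay below 1, near 1 and above 1 in bone marrow, and all below 1 in spleen. Snrpd2, of the same ring, had the highest snRNP ratio in bone marrow, with 234 and 333 CPM (ratio 1.43, 1.40–1.45). In spleen Snrpd1 had 429.8 and 253 CPM (ratio 0.589, 0.493–0.702).

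The hnRNP genes held both members past 1.5-fold in bone marrow. Hnrnph1, which binds G-rich splice elements, had 63.0 and 109 CPM (ratio 1.72, 1.67–1.78) in bone marrow and 73.6 and 112 CPM (ratio 1.52, 1.10–2.09) in spleen. Hnrnpdl, which binds AU-rich RNA, had 86.4 and 137 CPM (ratio 1.59, 1.54–1.64) in bone marrow and 169 and 182 CPM (ratio 1.07, 0.851–1.35) in spleen. Of the 17 comparisons in which Hnrnph1 had 50 UMIs, 4 were at least 1.5-fold higher and 0 lower: these and the doubly gated cells of bone marrow (29.5 and 65.3 CPM, ratio 2.22, 1.73–2.88) and spleen (32.8 and 61.2 CPM, ratio 1.87, 1.07–3.57). In MA9-gated cells of spleen Hnrnph1 was no longer counted as 1.5-fold higher under 9 alternatives, among them a filter of 200 UMIs that it did not pass, and its ratio was 1.11 once the doubly gated cells were added and 1.37 without mitochondrial, ribosomal protein and haemoglobin genes. The Hnrnph1 ratio was 0.979 in T-like and 0.7999 in B-like cells of spleen.

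The hnRNP genes of highest CPM in BM-Ctrl were Hnrnpf, Hnrnpa1 and Hnrnpa3. Hnrnpa1, which can block the recognition of exons, had 524 and 725 CPM (ratio 1.38, 1.37–1.40) in bone marrow and 488 and 464 CPM (ratio 0.9498, 0.825–1.09) in spleen. Hnrnpf had 536 and 512.4 CPM (ratio 0.955, 0.943–0.968) in bone marrow and 774 and 585 CPM (ratio 0.757, 0.671–0.852) in spleen. Hnrnpa3 had 504 and 528 CPM (ratio 1.05, 1.03–1.06) in bone marrow and 613 and 512.5 CPM (ratio 0.836, 0.733–0.951) in spleen. The 3 thus had no common direction in bone marrow. At the low end there, Hnrnpc, which binds U-rich RNA, had 296 and 217 CPM (ratio 0.733, 0.719–0.748), and Hnrnph2, a relative of Hnrnph1, 66.5 and 50.7 CPM (ratio 0.763, 0.732–0.794).

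In MA9-gated cells of spleen, 52 members had 50 UMIs, 11 with a log2 ratio above 0 and 41 below. The median was −0.26, beside −0.02 for all genes. At least 1.5-fold lower in Spleen-shPrmt9 were 12 members, where 18% of all genes were; at least 1.5-fold higher was 1, Hnrnph1, where 18% of all genes were. The 12 were the 3 SF3A genes, Snrpg, Snrpd1, Snrpa1, Snrpa, Snrpb, Srsf10, Srsf7, Hnrnpul2 and Hnrnpab, and for Sf3a1 and Sf3a2 the interval crossed 1. The highest after Hnrnph1 were Hnrnph3 (1.35), Hnrnpl (1.22), Sf3b1 and Hnrnpd (1.14), each with an interval across 1. Set side by side, 12 members had an interval above 1 in bone marrow and below 1 in spleen, 10 had intervals below 1 in both, and 1, Hnrnph1, above 1 in both. The same counts were not made over all genes, so whether they are particular to the members cannot be told. With the high UMI totals of bone marrow, intervals there were narrow. The spleen values rest on 24 and 19 cells, and with each cell thinned to 2000 UMIs, where fewer members reach 50 UMIs, 1 member was at least 1.5-fold lower and the median was −0.56. With the doubly gated cells added, 33 were at least 1.5-fold lower and the median was −0.72. With scaling by the trimmed mean of M values (TMM), or without the 5% deepest cells, 0 members were at least 1.5-fold higher.

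**Figure D2:**
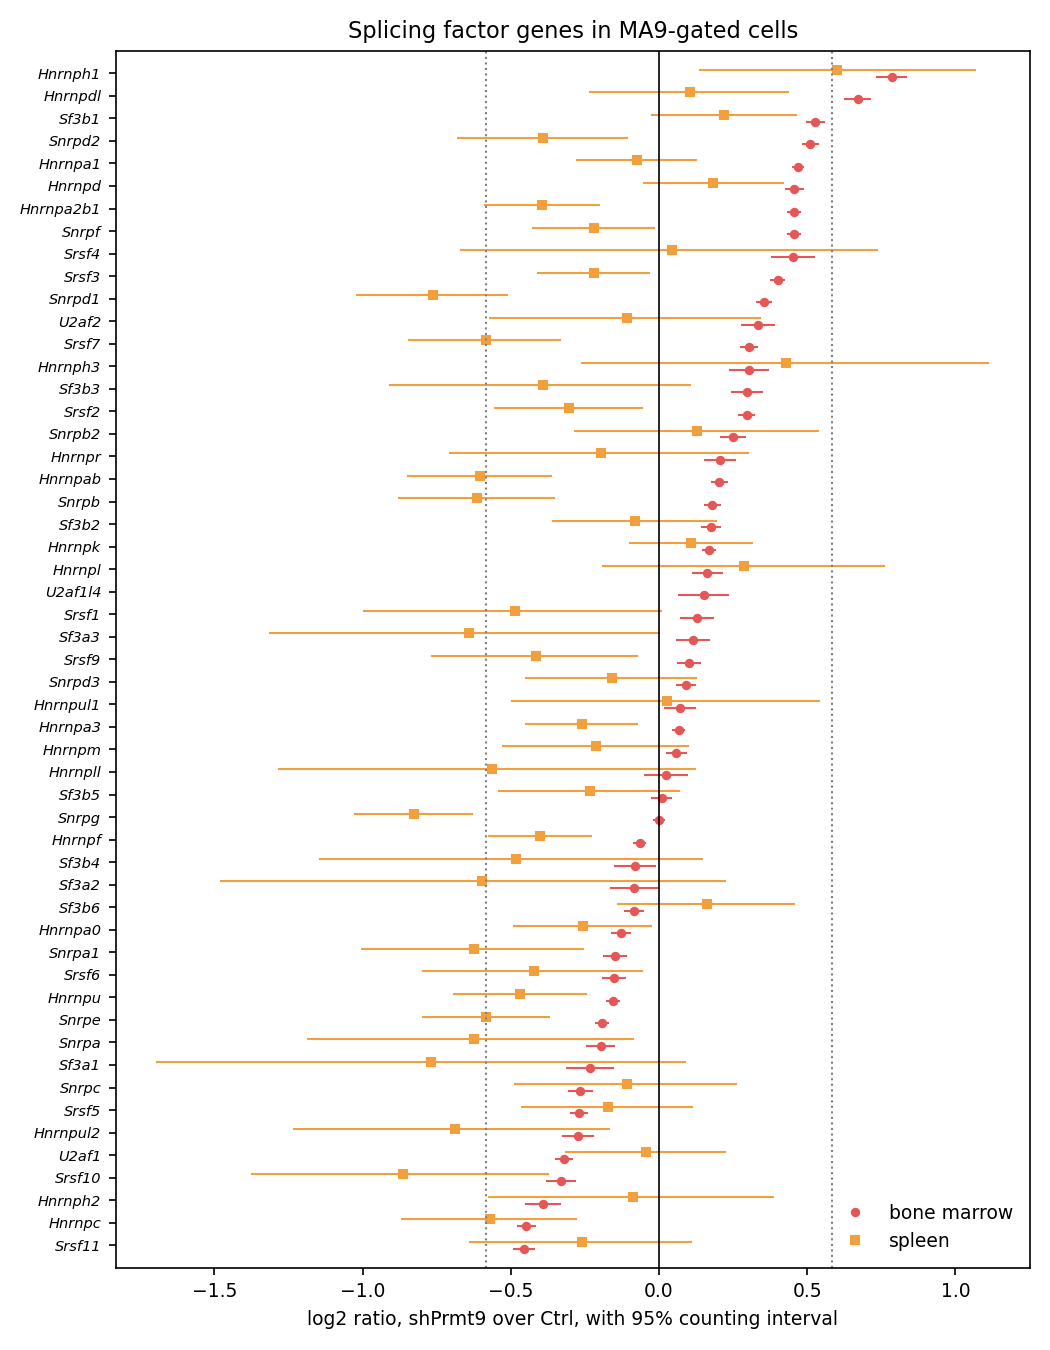
Log2 ratio of shPrmt9 to Ctrl (x axis) for each of the 53 members in MA9-gated cells, in order of the bone marrow ratio, with lines for the 95% counting interval and dotted lines at 1.5-fold, for bone marrow and spleen. In bone marrow 2 members lie past the right dotted line and 0 past the left; in spleen 41 of 52 lie below 0.

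MA9-gated cells of bone marrow differed in a marker of proliferation: Mki67 was at 103 and 175 CPM, while Top2a was at 232 and 235. The cells were divided into those with a UMI of Mki67 or Top2a, 1132 and 1158 cells, and those with none, 255 and 159 cells. In the first set the members' median log2 ratio was 0.12, beside 0.02 for all genes, with 2 of 53 at least 1.5-fold higher (19.2% of all genes) and 0 lower (14.5%). In the cells with none it was −0.28, beside −0.03 for all genes, with 12 members above 0 and 41 below. Of all genes there, 4585 were above 0 and 5003 below. Among the members in these cells, 0 were at least 1.5-fold higher (18.7% of all genes) and 9 at least 1.5-fold lower (19.1%).

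The median thus lay on opposite sides of 0 in the 2 sets. The 9 members lower in cells with none were Sf3a1 (0.543), Srsf10 (0.569), Hnrnpc (0.583), Snrpc (0.593), U2af1 (0.617), Snrpa1 (0.626), Hnrnph2 (0.628), Hnrnpu (0.651) and Snrpe (0.657). Hnrnph1 had 58.2 and 72.7 CPM (ratio 1.25, 1.11–1.41) there, and Hnrnpdl 81.6 and 88.8 CPM (ratio 1.09, 0.978–1.21). Sf3b1 had the highest ratio of the 53 in these cells, with 167 and 248 CPM (ratio 1.48, 1.39–1.59). Sf3b2 had a ratio of 1.06 there. The cells with none had median depths of 48470 and 36709 UMIs, against 64198 and 61467 for the others, and a shallow cell is less likely to show a UMI of either gene.

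**Figure D3:**
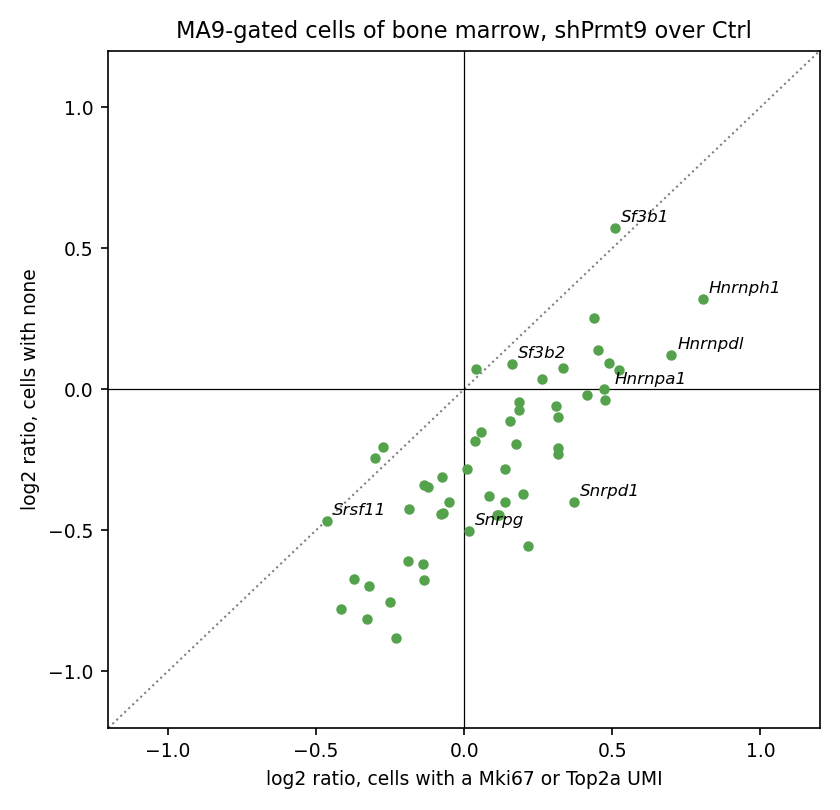
Log2 ratio of shPrmt9 to Ctrl for the 53 members in MA9-gated cells of bone marrow, for cells with a Mki67 or Top2a UMI (x axis) against cells with none (y axis), with a dotted line where both are equal. Most points lie below the dotted line, with medians of 0.12 and −0.28, and Sf3b1 lies slightly above it.

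Among the MA9-gated, doubly gated and granulocyte-like cells of each library, the summed members were highest in MA9-gated cells, lower in doubly gated cells and lowest in granulocyte-like cells. They made up 11035, 6631 and 4345 CPM in BM-Ctrl, 12017, 7336 and 3460.1 in BM-shPrmt9, 13649, 8353 and 5055 in Spleen-Ctrl and 11140.0, 6579 and 4478 in Spleen-shPrmt9. The classes were gated on other genes, but they also differed in depth, with medians of 60872, 27074 and 4107.5 UMIs per cell in BM-Ctrl. The 11 granulocyte markers of the gate took 3534, 126900 and 342070 CPM there, in the same order. Genes with such a share of the UMIs lower the CPM of the rest, and their part in the gradient was not tested. MA9-gated cells were not the highest of all classes. In BM-Ctrl megakaryocyte-like cells had 11597 CPM of the members, natural killer-like cells 11443 and B-like cells 11391. In BM-shPrmt9 megakaryocyte-like cells had 15175 and B-like cells 12168. The megakaryocyte-like values rest on 11 and 12 cells. B-like cells had 12388 in Spleen-shPrmt9, and natural killer-like cells 14510.0 in Spleen-Ctrl. Erythroid-like cells, at 3071, 2914, 1149 and 917 CPM, were below granulocyte-like cells in each library.

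The families did not share this gradient equally. In BM-Ctrl the ratio of MA9-gated to granulocyte-like cells was 5.29 (5.20–5.38) for the snRNP sum, 3.07 (2.87–3.29) for SF3A, 3.07 (2.95–3.20) for U2AF, 2.34 (2.30–2.37) for SR, 2.26 (2.24–2.28) for hnRNP and 1.24 (1.22–1.26) for SF3B. Over granulocyte-like cells, 43 of 53 members were at least 1.5-fold higher in BM-Ctrl (55.2% of all genes), 46 of 53 in BM-shPrmt9 (59.3%), 43 of 51 in Spleen-Ctrl (52.8%) and 45 of 52 in Spleen-shPrmt9 (46.7%). Over doubly gated cells, 34 of 53 were so in BM-Ctrl (39.8% of all genes), 34 of 53 in BM-shPrmt9 (29.3%), 29 of 52 in Spleen-Ctrl (43.5%) and 33 of 53 in Spleen-shPrmt9 (29%). The members' share was above that of all genes in each.

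Single members ranged widely. Snrpf was at 406 and 27.4 CPM (ratio 14.8) in MA9-gated against granulocyte-like cells of BM-Ctrl, and at 556 and 24.02 CPM (ratio 23.1) in BM-shPrmt9. Sf3b3 had ratios of MA9-gated to granulocyte-like cells of 6.46, 9.11, 4.20 and 3.66 in the 4 libraries. Sf3b2 was at the other end, with 0.863, 0.981, 1.35 and 1.29, among the 6 lowest of the members in every library. Mitochondrial and ribosomal protein genes took 3.83% and 30.4% of the UMIs of MA9-gated cells of BM-Ctrl and 0.921% and 4.88% of those of granulocyte-like cells. Without these and haemoglobin genes the Sf3b2 ratios were 1.24, 1.38, 1.75 and 1.55, all above 1. That reduced total kept the 11 granulocyte markers, which took 342070 CPM of all UMIs in granulocyte-like and 3534 in MA9-gated cells of BM-Ctrl. The part of these markers in the Sf3b2 ratios was not tested. Sf3b1 had ratios of 0.732, 1.36, 1.14 and 1.70, and Srsf5 of 1.04, 1.13, 0.765 and 1.18.

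**Figure D4:**
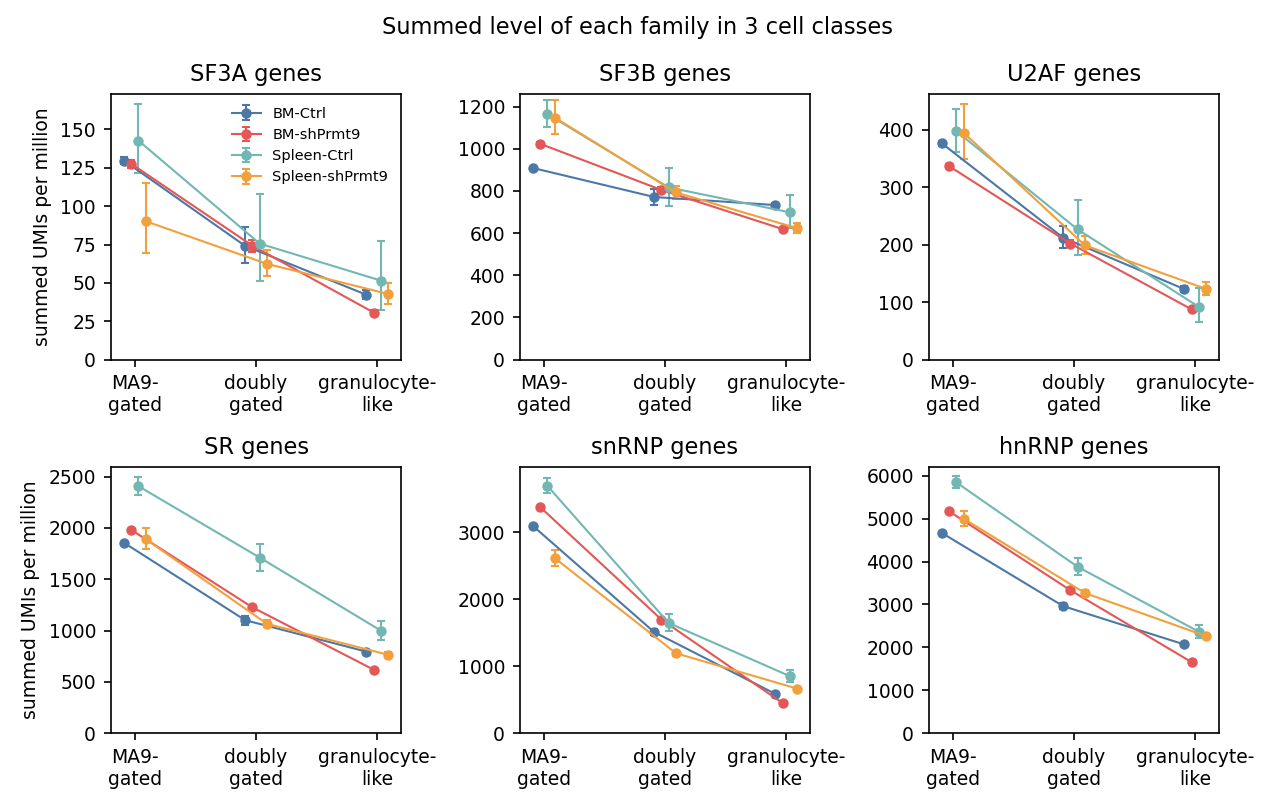
Summed CPM of each gene family (y axis, from 0) in MA9-gated, doubly gated and granulocyte-like cells of each library, with exact Poisson 95% intervals. In BM-Ctrl the snRNP sum goes from 3096 in MA9-gated to 585 in granulocyte-like cells, and the SF3B sum from 909 to 733.

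In T-like cells of spleen, 1970 and 2510 cells, the median log2 ratio of 53 members was −0.04, beside −0.08 for all genes, and with TMM scaling it was above 0. At least 1.5-fold higher were 0 members (7.91% of all genes) and at least 1.5-fold lower 0 (16.5%). Hnrnpa1 had the highest ratio, with 285 and 384 CPM (ratio 1.35, 1.30–1.40), followed by U2af1l4 (1.34), Hnrnpdl (1.29), Hnrnpul2 (1.23) and U2af1 (1.16). Snrpd3, an Sm protein gene, had the lowest, with 190.5 and 134 CPM (ratio 0.702, 0.668–0.737), followed by Srsf5 (0.778), Hnrnpr (0.780), Snrpf (0.783) and Snrpg (0.7998). Mki67 was at 9.82 and 1.54 CPM in these cells, the erythroid markers at 299 and 2546 and the granulocyte markers at 50.1 and 500.1, and their part in the result was not tested.

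In B-like cells of spleen, 5565 and 1138 cells, the median was 0.09, beside −0.17 for all genes, and under a stricter gate it was below 0. At least 1.5-fold higher was 1 of 53 members (8.6% of all genes), Hnrnpa1, with 391 and 674 CPM (ratio 1.72, 1.68–1.76). At least 1.5-fold lower was 1 (20.6% of all genes), Srsf5, with 450.1 and 294 CPM (ratio 0.652, 0.634–0.671). The snRNP genes stood together: 11 of 11 had a log2 ratio above 0, with a median of 0.42, led by Snrpc of the U1 particle (108 and 161 CPM, ratio 1.49, 1.42–1.56), Snrpd2 (301 and 444 CPM, ratio 1.47, 1.43–1.51) and Snrpd1 (139 and 199.6 CPM, ratio 1.44, 1.38–1.49). Hnrnpab followed at 1.41. The lowest after Srsf5 were Srsf10 (0.718), Hnrnph3 (0.720), Hnrnpr (0.751) and Hnrnph2 (0.755). The B-like cells of Spleen-shPrmt9 had a median of 13820.5 UMIs against 6313, and Mki67 was at 7.84 and 21.2 CPM. Markers of other classes moved as well in these B-like cells, plasma cell markers at 615 and 1204 CPM, erythroid markers at 306 and 2018 and granulocyte markers at 71.3 and 448, while the B cell markers were at 10727 and 8958. The part of depth, Mki67 and these markers in the result was not tested.

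The families were followed through all 8 spleen comparisons, which share the same pair of libraries. The SR sum had a ratio below 1 with its interval in 8 of 8, the lowest 0.623 (0.573–0.677) in doubly gated cells and the highest 0.925 (0.912–0.938) in T-like cells. The snRNP sum was below 1 with its interval in 7 of 8, with 0.677 (0.647–0.709) in natural killer-like and 0.849 (0.838–0.859) in T-like cells, and above 1 in B-like cells alone (1.27, 1.26–1.28). The B-like and T-like snRNP ratios kept their sides of 1 under all 10 alternatives, ranging over 1.14 to 1.47 and 0.829 to 0.917. The SR and snRNP ratios of erythroid-like cells of spleen crossed 1 under 2 of 10 alternatives, and the snRNP ratio of granulocyte-like cells of spleen under 1 of 10. The SR ratio came near 1 under an alternative in T-like cells, at 0.999, and in B-like cells, at 0.983.

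In bone marrow the same families had no common direction: the snRNP sum was above 1 in 7 and below 1 in 3 of 10 comparisons, and the SR sum above 1 in 6 and below 1 in 4. The all-member sum was below 1 in 7 of 8 spleen comparisons, with B-like cells the exception at 1.09 (1.09–1.10). These sums are on the scale of all UMIs. TMM scaling shifted all log2 ratios of spleen alike, by 0.11 in T-like, 0.14 in B-like and 0.23 in monocyte/macrophage-like cells. The shift was 0.27 in granulocyte-like, 0.65 in erythroid-like, 0.01 in doubly gated, −0.06 in MA9-gated and −0.17 in natural killer-like cells. The part of the scale in the spleen counts of the families was not tested.

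Granulocyte-like cells of bone marrow, 3952 and 5662 cells, had 52 of 53 members below 0 and a median of −0.34, beside −0.26 for all genes. At least 1.5-fold lower were 4 members (16.5% of all genes), Hnrnpc, Sf3a1, Sf3a3 and U2af1, and 0 were higher (5.82%). Hnrnpc had 185 and 112 CPM (ratio 0.607, 0.582–0.633). Sf3b2, with a ratio of 0.994 (0.961–1.03), had the second highest ratio of the 53. With TMM scaling the members' median was −0.06, and the shift of 0.28 applied to all genes alike.

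In the smaller classes the members past 1.5-fold are named after their values were seen. T-like cells of bone marrow had 1 of 53 higher, Sf3b4 at 1.70 (8.96% of all genes), and 0 lower (7.78%). B-like cells of bone marrow had 0 of 52 higher (7.79%) and 0 lower (12.9%). In the lymphoid classes of bone marrow the share of members past 1.5-fold was thus below that of genes at large, again not matched for level. Monocyte/macrophage-like cells of bone marrow had 0 of 53 higher (11.4%) and 3 lower (15.2%), Srsf4, Hnrnpc and Hnrnpa1. Dendritic cell-like cells had 3 of 50 higher (11.1%), led by Hnrnpdl, and 4 lower (18.1%). Basophil-like cells had 2 of 38 higher (11.4%), Hnrnpa1 and Snrpf, and 4 lower (11.7%). Hnrnpa1 was thus past 1.5-fold in opposite directions among the myeloid classes of bone marrow. Erythroid-like cells of bone marrow had 4 of 46 higher (32.9%) and 1 lower (4.98%), Hnrnpul1. Doubly gated cells of bone marrow had 4 of 53 higher (24.3%), Sf3b3, Hnrnph1, Snrpf and Snrpd1, and 0 lower (12%). Megakaryocyte-like cells, 11 and 12 cells, had 15 of 45 higher (20.5%), led by Hnrnpu at 2.22, and 0 lower (6.34%).

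In spleen, natural killer-like cells had 2 of 52 higher (22.6% of all genes), Hnrnpul2 and Hnrnpul1, and 7 lower (10.5%), 5 of them snRNP genes, with Snrpf at 731 and 374 CPM (ratio 0.511, 0.453–0.577). Doubly gated cells of spleen had 2 of 53 higher (29.3%) and 16 lower (13.6%), among them 7 SR genes. Monocyte/macrophage-like cells of spleen had 3 of 36 higher (21.5%) and 8 lower (16.6%). The doubly gated cells of Spleen-Ctrl numbered 12 and the monocyte/macrophage-like cells 15. Granulocyte-like cells of spleen had 3 of 52 higher (15.1%) and 5 lower (19.8%), and erythroid-like cells of spleen 1 of 45 higher (14%) and 11 lower (34.4%). Over all classes the members' medians ran over −0.34 to 0.39 for bone marrow and −0.33 to 0.09 for spleen, and lay above the median of all genes in 7 of 10 and 3 of 8 comparisons.

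**Figure D5:**
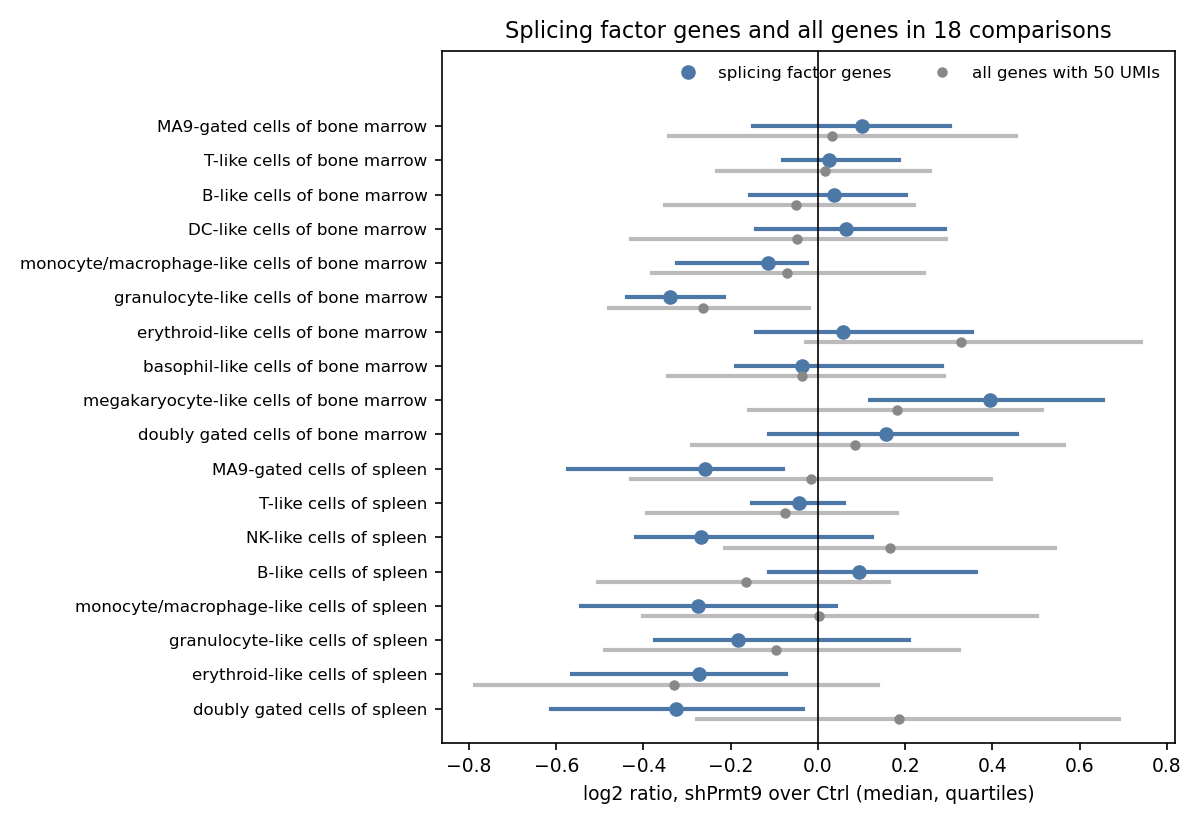
Median log2 ratio of shPrmt9 to Ctrl with quartiles (x axis) for the splicing factor genes (blue) and for all genes with at least 50 UMIs (grey) in 18 comparisons (y axis). The blue medians lie between −0.34 and 0.39; in spleen B-like cells alone have a blue median above 0, at 0.09.

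Of 80 other genes of splicing (further U2, U4, U5 and U6 proteins, helicases, kinases and assembly factors), 79 had 50 UMIs in MA9-gated cells of bone marrow, 3 of them at least 1.5-fold higher, where 20% of all genes were, and 7 lower, where 14.3% were. The 80 also include arginine methyltransferases, among them Prmt9, the hairpin's own target, which was 1 of the 7 lower in bone marrow. In spleen, where Prmt9 had under 50 UMIs, 4 of 64 were higher and 13 lower. There 18% of all genes were past 1.5-fold in each direction. Of the kinases of SR proteins, Srpk1 and Srpk2 were past 1.5-fold in both tissues, and their directions were opposite to each other. Srpk1 had 177 and 71.5 CPM (ratio 0.404, 0.392–0.416) in bone marrow and 105 and 54.4 CPM (ratio 0.520, 0.351–0.755) in spleen. Srpk2 had 39.5 and 64.9 CPM (ratio 1.64, 1.57–1.72) in bone marrow and 52.3 and 109 CPM (ratio 2.08, 1.46–2.97) in spleen.

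In doubly gated cells of bone marrow the Srpk1 ratio was 0.584 (0.471–0.729) and the Srpk2 ratio 1.38 (1.19–1.60). In T-like cells of spleen both were below 1, at 0.812 and 0.866. Granulocyte-like cells had 23.0 and 22.0 CPM of Srpk1 and 312 and 274 of Srpk2 in bone marrow, and granulocyte markers were higher in MA9-gated cells of BM-shPrmt9; their part in the result was not tested. Lsm6, of the ring that U6 carries, was past 1.5-fold in opposite directions, with 124 and 216 CPM (ratio 1.75, 1.71–1.79) in bone marrow and 230.4 and 142 CPM (ratio 0.615, 0.483–0.778) in spleen.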

How the data were processed

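Single cells of 4 libraries were counted by the authors with Cell Ranger (3′ chemistry), version 6.1.1 on mm10 by the labels' processing notes and version 6.0.2 by the matrix header. The deposited matrices hold whole UMI counts, neither scaled nor corrected. Cells with under 200 genes or over 20% mitochondrial UMIs were left out, as were the highest Scrublet scores (scanpy 1.11.5) up to a doublet share set in proportion to the number of barcodes, which took out 752, 1011, 652 and 558 cells. Scrublet's own calls (141, 0, 1 and 183) had not worked in BM-shPrmt9 and Spleen-Ctrl.

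Cells passed a gate with at least 3 markers and a minimum UMI sum per 10000, set after the data were seen; cells passing several gates were left out, except those of the MA9 and granulocyte gates. Members, lists and named genes (SF3A, SF3B and U2AF genes, the 3 highest SR, snRNP and hnRNP genes, and the 5 highest and lowest ratios) were chosen with earlier results of these data known. UMIs were summed per class and library and scaled to 1000000. Ratios of genes with 50 UMIs over both libraries have exact binomial 95% intervals, and levels Poisson ones, both for counting error only. A gene was counted as higher or lower at 1.5-fold. TMM factors came from edgeR 4.0.16, scripts from Python 3.11.15 and R 4.3.3. Scripts were tested on simulated counts. Gene positions are from GENCODE on GRCm38, promoters from RefSeq. Reads of genes with processed pseudogenes could have been lost in counting, which was not tested.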

Additional observations from a re-analysis of the deposited data

Results flagged for a closer look

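Between the tissues, 4 genes lay at least 1.5-fold from 1 in opposite directions in the same class. Members were searched in every class with ratios in both tissues, and the other genes of splicing in MA9-gated cells alone. The share of all genes that did so was not counted. Lsm6 had a ratio of 1.75 in MA9-gated cells of bone marrow and 0.615 in those of spleen. In doubly gated cells of bone marrow Sf3b3 had a ratio of 2.28 (20.5 and 46.9 CPM) and Snrpd1 of 1.62 (111 and 180), against 0.401 (78.1 and 31.3) and 0.524 (184 and 96.4) in spleen, where Spleen-Ctrl held 12 such cells. In erythroid-like cells Srsf9 had a ratio of 1.60 in bone marrow (9.37 and 15.0 CPM) and 0.483 in spleen (8.07 and 3.90). With 1 library per group the difference between tissues was not tested for any of them, and tissue cannot be told apart from host.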

How the results depend on the processing

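No paired analysis was possible because each group has 1 library and the result comes from no test, and no library could be left out. Alternatives for cells counted as MA9-like with the doubly gated ones, for cells without a Mki67 or Top2a UMI and for shared barcodes were chosen after seeing the data. In MA9-gated cells of bone marrow the members' median was −0.28 in cells without a proliferation UMI, with 0 members higher and 9 lower; 1 member was higher with each cell weighted equally and with doubly gated cells added. The Sf3b2 ratio there was 1.09 under a stricter gate, 1.08 with TMM factors, 1.10 without mitochondrial, ribosomal protein and haemoglobin genes, 1.10 with cells weighted equally, 1.06 thinned to 2000 UMIs and 1.06 in cells without a proliferation UMI. In spleen the median was −0.56 thinned and −0.72 with doubly gated cells added, and the Sf3b2 ratio 1.58 thinned. The 1 member higher there became 2 without a filter on low counts, and 0 with the class of highest marker score, TMM factors, the reduced total, equal weights, thinning, 200 UMIs, without the 5% deepest cells, with doubly gated cells added, and without shared barcodes. The 12 lower became 1 thinned, 6 at 200 UMIs and 33 with doubly gated cells added. The stricter gate and the cells without a proliferation UMI left under 10 MA9-gated cells in a spleen library and gave no value. The median log2 ratio of the splicing factor genes, T-like cells of spleen, was 0.069 with TMM factors, 0.026 with equal weights and 0.0149 thinned, and that of B-like cells −0.037 under a stricter gate. The causes were not tested. Against the scale of all UMIs, TMM factors moved the median of all genes by 0.28 in granulocyte-like cells of bone marrow, −0.32 and 0.65 in erythroid-like cells of bone marrow and spleen, 0.11 in T-like and 0.14 in B-like cells of the spleen. The MA9-gated cells of spleen are limited by their number, 24 and 19.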
